A study of Homo sapiens with 12 samples.

Results

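Antisense transcripts are RNAs copied from the strand opposite a known gene, so that their exons overlap the exons of that gene in the reverse direction. They can be separate noncoding genes, extensions or alternative starts of a neighbouring gene on the other strand, or RNA from a processed gene copy that was annotated in the reverse direction. Many are long noncoding RNAs, and some are known to act on the gene they overlap, by pairing with its RNA or through its chromatin. In the merged transcript catalogue of the study, Cufflinks marks such a transcript with the class code x, which means that its exons overlap a reference transcript on the opposite strand. Of 293768 transcripts in the table, 1736 carry this code, and 468 of them had an abundance over 0.5 FPKM (the fragment count divided by transcript length and by the mapped fragments of the library) in at least 3 of the 12 libraries. These 468 are described here, out of 64395 transcripts past the same limit in the 5 classes fitted together (those that match a reference transcript, share a splice site with one, overlap one on the same strand, lie antisense to one, or have none).

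The RNA came from HCT116, an established human colorectal carcinoma cell line, kept at 21% oxygen (0 h) or held at 1% oxygen for 1, 2 or 24 h, with 3 biological replicates at each time and no genetic manipulation named for any group. Low oxygen began 24 h after plating, and whether the 0 h cells were collected as long after plating as the 24 h cells is not given in the sources used here. Each library held polyadenylated RNA, copied with a strand-marking kit and read as 100-base pairs, and only the strand mark separates an antisense transcript from the gene opposite it. FPKM values were used in choosing the members, so their levels are a description. Because the limit can be met through 1 time point, 30 members entered through the 24 h libraries alone, and these could hardly do other than rise at 24 h. None entered through 0 h, 1 h or 2 h alone, and 71 of the longer members and 21 of the shorter ones were over 0.5 FPKM in all 12 libraries.

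The 468 members belonged to 437 Cufflinks gene loci and lay opposite 377 gene names, of which 60 had more than 1 member and the richest had 6. Their length ran from 100 to 16653 bases with a median of 797. Following the length of the reads, 415 members of 300 bases or more and 53 under 300 bases are treated apart. Just inside the limit among the longer members were those opposite FAM45B and RP11-104G3.2, with third-highest values of 0.5004 and 0.5023 FPKM, and just outside were those opposite SLC25A18 and SLC20A1, at 0.4998 and 0.4995 FPKM. Among the shorter members the neighbours inside were opposite EMC3 and RP11-697B24.1 (0.536 and 0.707 FPKM), and those outside were opposite PLCE1 and CTC-429P9.1 (0.482 and 0.391 FPKM).

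The reference transcript on the opposite strand could be found in GENCODE release 44 on GRCh37, the same build as hg19, for 425 members. Of the longer members, 225 lay opposite a protein-coding gene, 88 opposite a long noncoding RNA gene, 50 opposite a pseudogene, 10 opposite a small RNA gene and 1 opposite a gene of another kind, and 41 had no match. The 53 shorter members were opposite 25 protein-coding genes, 9 long noncoding RNAs and 17 pseudogenes, with 2 unmatched. For 157 members, release 44 places a gene on the member's own strand over the exons it opposes, which does not show that the member belongs to that gene. These include 32 members opposite a long noncoding RNA that share the strand of a protein-coding gene, 55 opposite a protein-coding gene that share the strand of a long noncoding RNA, and 49 where both strands carry a protein-coding gene. In 28 cases the Cufflinks locus of the member itself also held transcripts under a gene name, and 36 members carried a name that occurs at more than 1 locus.

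The table gives the position of the whole bundle of overlapping transcripts rather than of each transcript, and 6 members fill their bundle exactly. The most abundant of the longer members is one of them, and its sequence is shown because it has near-identical copies elsewhere in the genome. It fills chrX:108297344-108297887 on the plus strand (544 bases) over the pseudogene CTD-2328D6.1, whose exon is chrX:108297361-108297792 on the minus strand. Over 488 aligned bases it was 97.5% identical to both copies of a stretch of GL000220.1, an unplaced contig known to carry ribosomal RNA genes, at positions 117004 to 117491 and 160976 to 161463. The first 160 gap-free bases of both are given 5′ to 3′, with the 3 bases that differ in capitals. The member's stretch is chrX:108297349-108297508 and the contig's is at 117004 to 117163.
CTD-2328D6.1 antisense: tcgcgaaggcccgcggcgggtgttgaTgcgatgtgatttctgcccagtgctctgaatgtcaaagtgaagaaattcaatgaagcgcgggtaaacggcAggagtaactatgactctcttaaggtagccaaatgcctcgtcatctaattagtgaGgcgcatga
GL000220.1 plus strand: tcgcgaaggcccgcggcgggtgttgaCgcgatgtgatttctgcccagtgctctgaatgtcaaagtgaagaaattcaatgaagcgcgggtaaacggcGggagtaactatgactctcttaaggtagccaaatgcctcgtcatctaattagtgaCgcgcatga

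The next pair of sequences belongs to a member that fell at 24 h. The member opposite the pseudogene PSMC1P5 covers 450 of the 467 bases of chr5:106530567-106531033 on the minus strand, while the annotated pseudogene exon is chr5:106530857-106531033 on the plus strand. On the strand of the member, 288 aligned bases were 99.7% identical to PSMC1 (chr14:90738682-90738969, plus strand), which encodes an ATPase subunit of the proteasome, in the reading direction of PSMC1. The part that aligns to the last coding bases of PSMC1 is given 5′ to 3′ for chr5:106530793-106530859 and chr14:90738682-90738748. All 67 bases are the same, so there are no capitals.
PSMC1P5 antisense: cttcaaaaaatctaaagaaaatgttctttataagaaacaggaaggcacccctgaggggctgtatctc
PSMC1 coding strand: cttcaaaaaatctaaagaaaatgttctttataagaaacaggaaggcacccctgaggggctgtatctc

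The last sequence shows the overlap that defines the class. A member of 1645 bases fills chr1:247457910-247459554 on the minus strand. It covers a whole locus annotated under the name Y_RNA, at chr1:247458137-247458243 on the plus strand. Y RNAs are small noncoding RNAs of Ro ribonucleoprotein particles, and whether this locus makes one was not tested. The member's strand is given 5′ to 3′ for chr1:247458117-247458263, with the 107 bases complementary to the annotated locus in capitals and 20 bases on each side.
Y_RNA antisense: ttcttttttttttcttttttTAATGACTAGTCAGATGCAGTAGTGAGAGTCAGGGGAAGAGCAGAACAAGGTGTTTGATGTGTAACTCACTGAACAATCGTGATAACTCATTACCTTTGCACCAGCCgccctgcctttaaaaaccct
This member had 0.0244, 0.226 and 0.124 FPKM at 0 h, and 0.638, 0.750 and 0.781 FPKM at 24 h. All 24 h libraries were above all others, and it entered the set through 24 h alone, with a log2 change of 0.98 (standard error 0.22, limma adjusted p = 0.00754), just under the fold threshold used below. The name Y_RNA is carried by many loci, so its sense sum cannot be set beside this member.

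The libraries differed in ways that touch these transcripts. Summed FPKM ran from 1534760 to 5258189, and was largest in 1 h replicate 3, 2 h replicates 1 and 3, and 24 h replicate 3. Over transcripts of 300 bases or more the sum ran only from 642174 to 753519, so the wide range lay mainly in shorter transcripts. Of that sum, 8.59% to 32.8% lay in members under 300 bases and 0.166% to 0.294% in the longer members. Over 0.5 FPKM were 223, 225 and 208 of the longer members in the 0 h libraries, 208 to 233 after 1 h, 245 to 295 after 2 h, and 214, 250 and 315 after 24 h. In 24 h replicate 3 the unannotated transcripts of 300 bases or more over this level numbered 929, against 490 to 701 in the other libraries, whereas those of the same length that match the reference numbered 39112 there and 37853 to 39511 elsewhere. The epithelial markers EPCAM, KRT8, KRT18 and KRT19 were at 213 FPKM or more in every library. The blood, stromal and endothelial markers PTPRC, CD3E, HBB, COL3A1, DCN, LUM, PECAM1, VWF and CDH5 were at 0.076 FPKM or less in every library. CD68 ran from 1.77 to 14.2 FPKM and COL1A1 from 1.58 to 8.79 FPKM, and the means of both were highest at 24 h. Of the epithelial markers, KRT19, CDH1, CLDN3 and CLDN4 also had their highest means at 24 h. The other epithelial markers had lower means at 24 h than at 0 h: EPCAM 229 against 280, KRT8 880 against 988 and KRT18 517 against 603 FPKM.

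**Figure D1:**
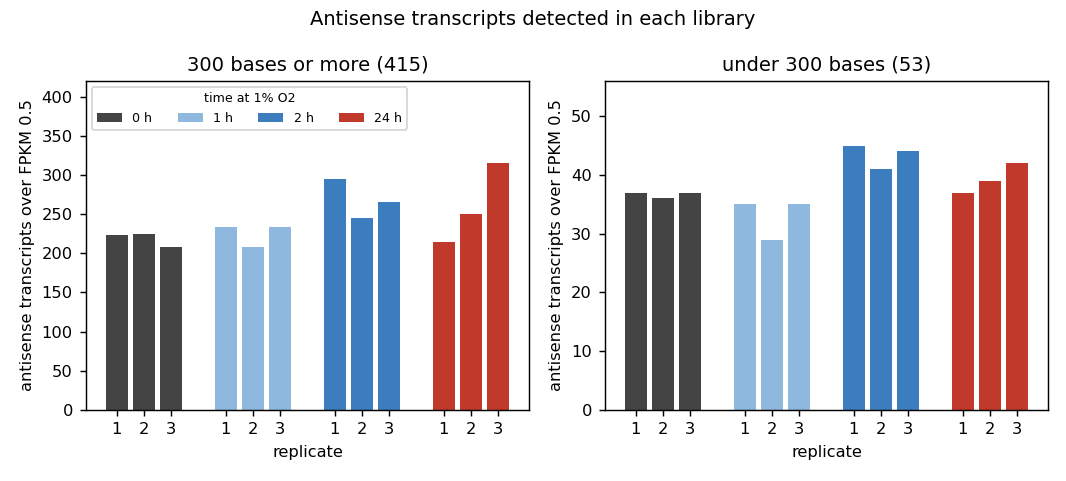
Number of antisense transcripts over 0.5 FPKM in each of the 12 libraries, for the 415 of 300 bases or more (left) and the 53 under 300 bases (right). Bars are single libraries grouped by time at 1% O2; 24 h replicate 3 has 315 longer members, against 214 and 250 in the other 24 h libraries.

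The first question was which antisense transcripts changed between 24 h and 0 h. At 24 h, 48 of the 415 longer members were called, at an absolute log2 change over 1 on the log2(FPKM + 0.5) scale and an adjusted p under 0.01 (limma, all 12 libraries, Benjamini-Hochberg over 64395 transcripts). Of these, 38 were higher (9.16% of the members) and 10 were lower (2.41%). The background among all 63113 transcripts of at least 300 bases was 5.27% higher and 6.50% lower. Without the members that entered through 24 h alone, 23 of 385 were higher (5.97%) and 10 lower (2.60%), beside a background of 4.28% and 6.58% among transcripts over the limit at 2 or more times. The share of rises was thus nearer the background once those members were set aside, while the share of falls stayed below it. No test was made of either difference. The scale itself limits falls, because a member at 0.5 FPKM or less in the 0 h libraries could not be called lower even if it vanished. The median longer member had a mean of 0.527 FPKM at 0 h, so the low share of falls cannot be read as a trait of the members. Falls called numbered 12 with pseudocount 0.1 and 3 with pseudocount 1. The median log2 change was 0.14 over the 415 members and -0.08 over all transcripts of that length.

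The number of calls moved with single libraries. The count of 48 was 22, 21 and 26 without 0 h replicate 1, 2 or 3, and 45, 27 and 31 without 24 h replicate 1, 2 or 3. Over all 63113 transcripts of that length the calls moved too, from 7432 to 4830, 5110 and 5711, and to 6441, 5623 and 6123. Without the 4 libraries of largest summed FPKM 14 members were called, of which 13 were among the 48, and 3769 of all transcripts of that length. Rescaling to a common sum over all transcripts (TPM) moves the median log2 change of all transcripts at 24 h from -0.08 to -0.42. It gave 9 called members, 1 higher and 8 lower, of which 8 were among the 48. Over all transcripts of that length 474 were then higher and 4679 lower. With TPM formed from the longer transcripts only, 35 members were higher and 14 lower (2747 and 4896 over all of that length). With median-of-ratios scaling 43 members were higher and 7 lower (3835 and 3442 over all of that length). All 48 kept their direction under each scaling, and the part of library composition in the count was not tested.

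**Figure D2:**
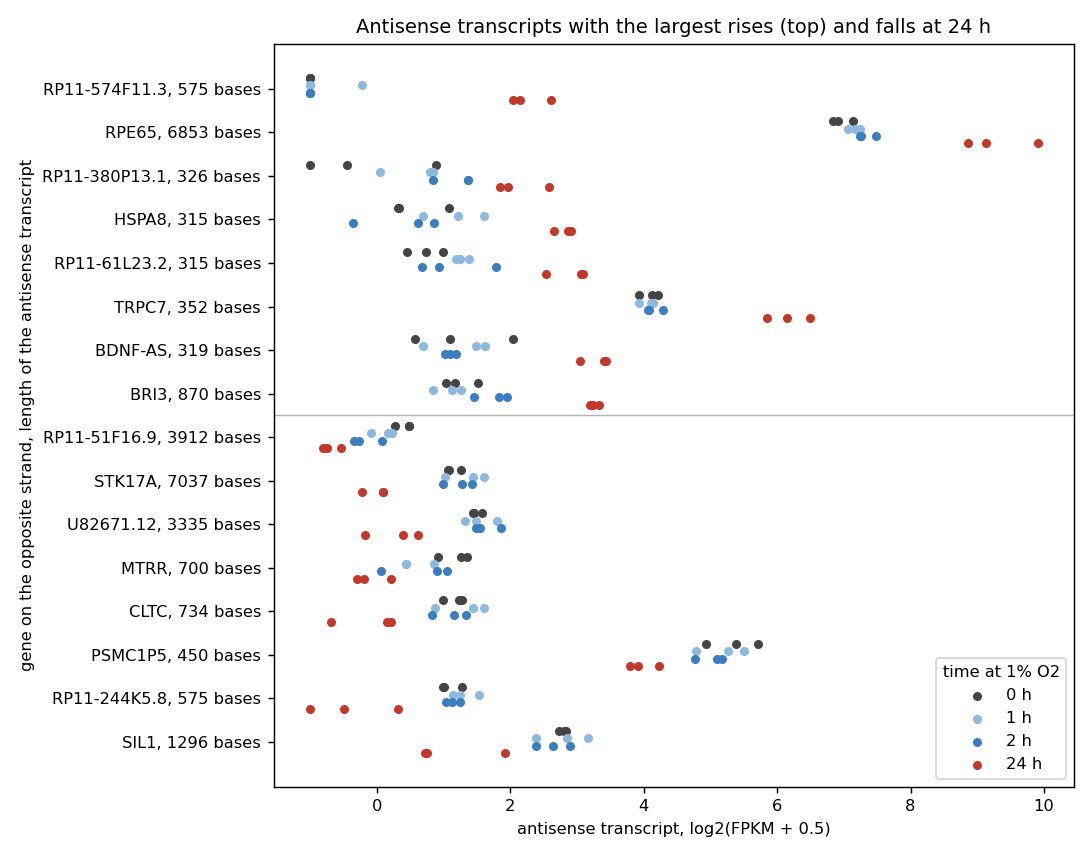
Abundance of the 8 antisense transcripts of 300 bases or more with the largest called rises (above the line) and the 8 with the largest called falls at 24 h, as log2(FPKM + 0.5). Each point is a library, coloured by time. Only members whose 24 h and 0 h libraries do not overlap could be chosen, so the gap between these times was fixed by the choice. At RPE65 the 24 h points stand at 463 to 962 FPKM against 114 to 141 FPKM at 0 h.

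By the kind of gene opposite, and without the members that entered through 24 h alone, 8 of 207 members facing protein-coding genes were higher and 6 lower, with a median log2 change of 0.01. Of 79 facing long noncoding RNAs 9 were higher and none lower (median 0.34), of 48 facing pseudogenes 3 were higher and 3 lower (median 0.10), and of 41 unmatched members 3 were higher and 1 lower (median 0.23). None of the 9 facing small RNAs was called (median 0.14). The background for these counts is the 4.28% higher and 6.58% lower given above, and no difference between the kinds was tested. The limit that the scale sets on falls at low FPKM holds for these counts too. The members that entered through 24 h alone add 10 rises facing protein-coding genes and 5 facing long noncoding RNAs.

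A member at a high level rose opposite RPE65, the retinoid isomerase of the visual cycle (chr1:68894505-68915637, minus strand). This member of 6853 bases had 114, 120 and 141 FPKM at 0 h, 133 to 151 at 1 h, 152 to 178 at 2 h, and 559, 463 and 962 FPKM at 24 h. The 24 h libraries stood above all 9 others, with replicate 3 the highest, and the log2 change was 2.33 (standard error 0.22, limma adjusted p = 4.24e-05). RPE65 itself was listed at 0 in 11 of the 12 libraries. Another 3 members lie opposite RPE65, with log2 changes of 0.35, 0.11 and -0.19, none of them called. The one of 6993 bases, in the same Cufflinks locus, went from 10.2, 10.9 and 12.4 to 13.9, 12.9 and 16.6 FPKM and was not called (limma adjusted p = 0.0934). That locus also holds RP4-694A7.2, a named transcript on the members' strand, with a mean of 6.61 FPKM at 0 h and 11.8 at 24 h (log2 change 0.78, standard error 0.13). The called rise was thus in 1 of the 3 members of this locus, and the abundance estimate divides reads among these overlapping models.

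Opposite TRPC7, a cation channel gene listed at 0 in all libraries (chr5:135548433-135701233, minus strand), a member of 352 bases also rose. It had 16.9, 18.1 and 14.7 FPKM at 0 h, 14.8 to 17.2 at 1 h, 16.3 to 19.2 at 2 h and 70.7, 57.2 and 89.6 at 24 h, without overlap between 24 h and any earlier library. Its log2 change was 2.08 (standard error 0.16, limma adjusted p = 1.76e-05). The annotation names the gene on the member's strand TRPC7-AS2.

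HSPA8 (chr11:122930826-122933938, minus strand) encodes the constitutive heat shock chaperone of the cytosol. The member opposite it of 315 bases had 0.746, 0.765 and 1.62 FPKM at 0 h, 0.281 to 2.54 FPKM at 1 and 2 h, and 7.01, 6.83 and 5.84 FPKM at 24 h. All 24 h libraries were above the rest, and the log2 change was 2.24 (standard error 0.35, limma adjusted p = 0.000986). The summed HSPA8 transcripts went the other way, from 2302 ± 154 FPKM at 0 h to 1680 ± 109 at 1 h, 1346 ± 348 at 2 h and 527 ± 85.2 at 24 h (SD, n = 3), a log2 change of -2.14 (standard error 0.17, limma adjusted p = 1.57e-06). The antisense share of the pair was 0.0453% at 0 h and 1.23% at 24 h. A longer member of 1401 bases in the same locus, with 0.295 to 0.402 FPKM at 0 h and 0.478 to 1.04 at 24 h, was not called (limma adjusted p = 0.185).

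BRI3 (chr7:97911695-97936761, plus strand) had a member in each length class. The one of 870 bases had 1.55, 1.76 and 2.36 FPKM at 0 h, 1.29 to 1.90 at 1 h, 2.26 to 3.36 at 2 h and 8.70, 8.93 and 9.52 at 24 h, a log2 change of 2.01 (standard error 0.20, limma adjusted p = 6.73e-05). The one of 267 bases had 1.08, 3.14 and 0.858 FPKM at 0 h and 6.01, 5.42 and 8.46 at 24 h, a log2 change of 1.82 (standard error 0.39, limma adjusted p = 0.00563). Sense BRI3 went from 48.3 ± 2.44 to 71.4 ± 1.95 FPKM (SD, n = 3), a log2 change of 0.56 that stayed under the fold threshold. BAIAP2L1, an adaptor of the actin cytoskeleton on the strand of both members, had means of 30.2 FPKM at 0 h and 46.3 at 24 h (log2 change 0.61, standard error 0.10).

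Further members rose from low levels. Opposite LAGE3, whose reference transcript had no match in release 44 and whose locus name on the member's strand is PLXNA3, a semaphorin receptor, the member of 1396 bases had 1.12, 1.55 and 1.37 FPKM at 0 h and 6.14, 7.43 and 6.0 at 24 h (log2 change 1.93, standard error 0.19, limma adjusted p = 5.65e-05). LAGE3 itself had 20.04 ± 1.40 FPKM at 0 h and 17.2 ± 1.15 at 24 h (SD, n = 3) and was not called, and PLXNA3 rose from a mean of 7.05 to 34.3 FPKM. Opposite MRPL43, a mitochondrial ribosomal protein gene, the member of 1183 bases had 0.0356 to 0.251 FPKM at 0 h and 1.06, 1.29 and 1.505 at 24 h (log2 change 1.45), and SEMA4G, the semaphorin gene on its strand, rose from a mean of 1.93 to 11.3 FPKM. MCAT, which encodes an enzyme of mitochondrial fatty acid synthesis, fell from 18.4 ± 0.685 to 7.70 ± 0.489 FPKM (SD, n = 3), while the member opposite it had 0.0567 to 0.128 FPKM at 0 h and 0.686 to 0.974 at 24 h (log2 change 1.14, standard error 0.20). The MRPL43 and MCAT members entered through the 24 h libraries alone. Opposite MAGI1, a scaffold protein of cell junctions, the member of 328 bases had 2.29, 2.15 and 4.68 FPKM at 0 h and 7.84, 9.91 and 13.7 at 24 h (log2 change 1.67), beside a sense sum with means of 7.96 and 15.5 FPKM. Opposite HNRNPUL1, an RNA-binding protein gene that shares the locus with the cytokine gene TGFB1 on the member's strand, the member had 0.425 to 0.608 FPKM at 0 h and 1.33 to 1.87 at 24 h (log2 change 1.10).

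The remaining called rises opposite protein-coding genes lay opposite FAM211A (2 members), ZNF710, PAX8, FAM115C, IL3RA, TSEN54, CCDC65, AP001055.1 and CATSPER1. Their log2 changes ran from 1.05 (CATSPER1) to 1.94 (FAM211A, 1083 bases). These names were taken after the values had been seen, to account for all called members, as were those of LAGE3, MRPL43, MCAT, MAGI1 and HNRNPUL1, and those of the further noncoding genes and pseudogenes below that follow the largest changes. Of this group IL3RA and TSEN54 had members that passed the limit at other times as well, whereas the others entered through 24 h alone. Of the 3 members whose sense names are ribosomal protein genes or their copies, that of RPL9P9 rose (0.188 to 0.390 FPKM at 0 h, 1.25 to 1.75 at 24 h) and that of RPL30 fell (1.79 to 2.37 FPKM at 0 h, 0.551 to 0.886 at 24 h). The sense sum of RPL30 was 1620 ± 45.0 FPKM at 0 h and 2267 ± 282 at 24 h (SD, n = 3). Ribosomal protein genes have many near-identical copies, so these values are uncertain.

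Some of the rises opposite long noncoding RNAs lay on the strand of an annotated protein-coding gene. The member of 660 bases opposite RP11-66B24.4, which release 44 calls ALDH1A3-AS1 (chr15:101433064-101459488, minus strand), had 5.69, 5.60 and 8.85 FPKM at 0 h, 4.46 to 6.41 at 1 h, 5.72 to 8.14 at 2 h, and 25.0, 21.5 and 35.2 at 24 h. No 24 h library overlapped the earlier ones, and the log2 change was 1.94 (standard error 0.24, limma adjusted p = 0.000226). On its strand is ALDH1A3, a retinaldehyde dehydrogenase, which had means of 81.3 FPKM at 0 h and 152 at 24 h (log2 change 0.90, standard error 0.13). RP11-66B24.4 itself had 0.814 ± 0.0951 FPKM at 0 h and 0.261 ± 0.225 at 24 h (SD, n = 3; log2 change -0.82, limma adjusted p = 0.00725), which did not reach the fold threshold.

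Opposite BDNF-AS (chr11:27528399-27699352, plus strand), the member of 319 bases on the strand of the neurotrophin gene BDNF had 3.63, 1.64 and 0.995 FPKM at 0 h, 1.12 to 2.58 at 1 and 2 h, and 10.1, 10.3 and 7.78 at 24 h (log2 change 2.05, standard error 0.35, limma adjusted p = 0.00152). BDNF itself had means of 10.8 FPKM at 0 h and 6.17 at 24 h, a log2 change of -0.76 (standard error 0.13). The member and the coding gene on its own strand therefore had changes of opposite sign. BDNF-AS had 0.576 ± 0.146 FPKM at 0 h and 0.938 ± 0.342 at 24 h (SD, n = 3) and was not called.

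The 3 members opposite RP11-714G18.1 (LRP2BP-AS1 in release 44; chr4:186291879-186312082, plus strand) lie in the bundle that also holds the hypoxia-induced gene ANKRD37 and on the strand of LRP2BP. The one of 2498 bases had 0.0773, 0.0758 and 0.104 FPKM at 0 h and 0.621, 0.998 and 1.55 at 24 h, and the log2 changes of the 3 were 1.37, 1.40 and 1.59. They lie opposite 1 gene and are not independent of each other, and those of 350 and 2498 bases entered through 24 h alone. LRP2BP, which encodes a protein that binds a lipoprotein receptor, rose from a mean of 0.498 to 4.68 FPKM (log2 change 2.32, standard error 0.30, limma adjusted p = 4.71e-05).

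A member of 575 bases opposite RP11-574F11.3 (chr9:5584490-5588994, plus strand) was listed at 0 in all 0 h and 2 h libraries and at 0.362, 0 and 0.0000732 FPKM at 1 h. At 24 h it had 3.61, 5.64 and 3.92 FPKM. It entered through the 24 h libraries alone, so its fitted log2 change of 3.27 (standard error 0.27) rests on the pseudocount and gives no fold. The member of 3529 bases opposite AC013448.1 was likewise listed at 0 in the 0 h libraries and had 1.64, 1.34 and 0.735 FPKM at 24 h. It too entered through the 24 h libraries alone, so its rise was fixed by the choice of members. Opposite RP11-380P13.1 (chr4:23562546-23770275, plus strand) the member of 326 bases had 0.232, 0 and 1.35 FPKM at 0 h, 0.534 to 1.30 at 1 h, 1.30 to 2.09 at 2 h and 3.43, 3.10 and 5.46 at 24 h (log2 change 2.32, standard error 0.44, limma adjusted p = 0.00287). The noncoding genes opposite these members were listed at 0 in every library.

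On chromosome 12, 2 of the 5 members of one Cufflinks locus were called. Opposite RP11-575F12.2 the member had 1.41, 1.17 and 1.51 FPKM at 0 h and 5.04, 4.61 and 4.72 at 24 h (log2 change 1.51, standard error 0.20, limma adjusted p = 0.000331). Opposite RP11-575F12.1 it had 0.00126, 0 and 0.184 FPKM at 0 h and 0.899, 1.20 and 0.954 at 24 h (log2 change 1.44, limma adjusted p = 0.0082). The other rises in this group, opposite RP1-293L8.2, RP11-894P9.1, RP11-815M8.1 and CDKN2B-AS1, had log2 changes of 1.98, 1.69, 1.36 and 1.09, and the last entered through 24 h alone, so that its rise was fixed by the choice of members.

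Opposite the unmatched name RP11-61L23.2, a member of 315 bases had 1.49, 1.16 and 0.874 FPKM at 0 h and 8.05, 5.29 and 7.82 at 24 h (log2 change 2.17, standard error 0.29, limma adjusted p = 0.000364). The sense sum of this name also rose, from 0.113 ± 0.0553 to 1.73 ± 0.548 FPKM (SD, n = 3; log2 change 1.84). The member opposite FAM115C, which entered through 24 h alone, lies in the same bundle and rose too, as did the sense sum of FAM115C (0.219 ± 0.0370 to 2.16 ± 0.667 FPKM, SD, n = 3). Besides RP11-61L23.2 and LAGE3, the unmatched riser was opposite CYP1B1-AS1, with 0.203 to 0.516 FPKM at 0 h and 1.07 to 2.45 at 24 h.

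Opposite pseudogenes the rises were SERHL, CICP6 and RPL9P9. The member opposite SERHL had 0.468, 0.658 and 0.454 FPKM at 0 h and 2.40, 3.15 and 3.42 at 24 h (log2 change 1.76, standard error 0.32, limma adjusted p = 0.00222). RRP7A, a ribosomal RNA processing factor on its strand, fell from a mean of 31.4 to 6.89 FPKM (log2 change -2.11, standard error 0.12). Here too the member and the annotated gene of the same strand had changes of opposite sign. Opposite CICP6 the member went from 0.998 to 1.16 FPKM at 0 h to 2.92 to 3.14 FPKM at 24 h.

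Among the falls was a member opposite SIL1, a nucleotide exchange factor of the endoplasmic reticulum (chr5:138609227-138629246, minus strand). The member of 1296 bases had 6.66, 6.51 and 6.13 FPKM at 0 h, 4.74 to 8.46 at 1 h, 4.75 to 6.98 at 2 h and 1.19, 1.16 and 3.30 at 24 h. All 24 h libraries were below all others, with replicate 3 the highest of them, and the log2 change was -1.65 (standard error 0.31, limma adjusted p = 0.00274). That is the largest fall on the log2(FPKM + 0.5) scale, but with a pseudocount of 0.1 those opposite RP11-244K5.8, RP11-51F16.9 and CLTC (-2.55, -2.12 and -1.91) were larger than that opposite SIL1 (-1.88). SIL1 itself had 17.1 ± 2.36 FPKM at 0 h and 17.1 ± 4.57 at 24 h (SD, n = 3), a log2 change of -0.03 (standard error 0.20, limma adjusted p = 0.923). MATR3, a nuclear RNA-binding protein on the member's strand, had means of 216 and 140 FPKM (log2 change -0.63, standard error 0.14).

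Similar falls beside a sense gene that was not called were seen opposite CLTC and STK17A. The member opposite CLTC, the clathrin heavy chain (chr17:57697256-57774317, plus strand), had 1.86, 1.49 and 1.93 FPKM at 0 h and 0.119, 0.655 and 0.614 at 24 h (log2 change -1.28, standard error 0.30, limma adjusted p = 0.00905), while CLTC had 160 ± 7.07 and 149 ± 39.8 FPKM (SD, n = 3). On its strand lies PTRH2, a mitochondrial peptidyl-tRNA hydrolase, with a log2 change of -0.55. The member of 7037 bases opposite STK17A, a serine/threonine kinase (chr7:43622707-43666978, plus strand), had 1.90, 1.62 and 1.61 FPKM at 0 h and 0.567, 0.363 and 0.568 at 24 h (log2 change -1.15, standard error 0.23, limma adjusted p = 0.00378). STK17A had 14.7 ± 1.52 and 16.1 ± 1.92 FPKM (SD, n = 3).

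At MTRR and PSMC1P5 the antisense transcript and the sense sum fell together. Opposite MTRR, the reductase that reactivates methionine synthase (chr5:7851308-7878151, plus strand), the member had 2.05, 1.40 and 1.90 FPKM at 0 h, 0.857 to 1.31 at 1 h, 0.542 to 1.59 at 2 h and 0.317, 0.376 and 0.655 at 24 h (log2 change -1.27, standard error 0.30, limma adjusted p = 0.00952). MTRR fell from 25.7 ± 2.58 to 10.2 ± 3.68 FPKM (SD, n = 3; log2 change -1.34). The PSMC1P5 member shown by sequence above had 52.2, 41.1 and 30.0 FPKM at 0 h, 26.7 to 44.7 at 1 and 2 h and 13.4, 18.2 and 14.6 at 24 h (log2 change -1.37, standard error 0.23, limma adjusted p = 0.00146). PSMC1, whose sequence it repeats, had 45.2, 37.2 and 28.3 FPKM at 0 h and 14.9, 14.6 and 12.4 at 24 h, a log2 change of -1.35 (standard error 0.19, limma adjusted p = 9.08e-05). How reads were shared out between these near-identical copies was not tested, so the value of the member is uncertain.

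The 5 other falls were opposite RP11-244K5.8, U82671.12, RP11-51F16.9, RPL30 and TOMM20L. The first had 1.52, 1.49 and 1.94 FPKM at 0 h and 0, 0.211 and 0.747 at 24 h (log2 change -1.49, standard error 0.31). The member opposite U82671.12 had 2.50, 2.22 and 2.24 FPKM at 0 h and 0.387, 0.809 and 1.04 at 24 h (log2 change -1.21). That opposite RP11-51F16.9 had 0.708 to 0.904 FPKM at 0 h, 0.441 to 0.675 at 1 h, 0.288 to 0.555 at 2 h and 0.0757 to 0.189 at 24 h (log2 change -1.11), and its Cufflinks locus also holds TACO1, a mitochondrial translational activator, which fell from a mean of 35.3 to 13.9 FPKM. At TOMM20L, where the strand of the member belongs to the mitochondrial import gene TIMM9, it had 0.594 to 0.647 FPKM at 0 h and 0 to 0.172 at 24 h.

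Leaving out 1 library moved calls of these members across the threshold while every sign was kept. The log2 changes then ran from -2.05 to -0.99 over the 8 largest falls, and from 1.72 to 2.86 over the 8 largest rises apart from RP11-574F11.3. Rises and falls cannot be compared in this respect, since the rises were the larger changes, and no test of it was made. Of the 8 largest rises, RP11-380P13.1 lost its call without 0 h replicate 1 or 2 or 24 h replicate 3 (highest limma adjusted p = 0.0137), and the other 7 kept theirs in all 6 cases. One of these 7, RP11-574F11.3, entered through 24 h alone and was listed at 0 in the 0 h libraries, so its call carries no weight here. Other settings also ended calls among the rises: with the libraries of the 2 groups alone BDNF-AS and RP11-380P13.1 (limma adjusted p = 0.0129 and 0.023), and without the 4 libraries of largest summed FPKM the same pair (0.0191 and 0.0438). With no filter RP11-380P13.1 was also lost (0.0123). Under the first of these settings 7 of the 8 falls lost their calls, all but PSMC1P5, and under the second 6, all but SIL1 and RP11-244K5.8. Of the 8 largest falls, that opposite PSMC1P5 kept its call in all 6 cases with 1 library left out. The members opposite CLTC and MTRR lost it without any one of the 6 libraries, with limma adjusted p up to 0.0318 and 0.0371, and also with a pseudocount of 0.1 (0.0125 and 0.0105) and with median-of-ratios scaling (0.0114 and 0.0115). SIL1 lost it without 0 h replicate 1 or 2 or 24 h replicate 1 or 2 (up to 0.0124), and STK17A without any 0 h library or 24 h replicate 2 (up to 0.0172). RP11-244K5.8 and U82671.12 lost it without any library but 24 h replicate 3 (up to 0.0194 and 0.017), and RP11-51F16.9 without any but 24 h replicate 1 (up to 0.018). Under TPM over all transcripts 6 of these 8 falls were still called and, RP11-574F11.3 aside, none of the rises, whose adjusted p then ran from 0.0108 to 0.0542.

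The second question was how the antisense transcripts moved beside their sense genes. Sense sums (the classes = and j, which share splice sites with the reference, added over all transcripts of the gene name) could be tested for 241 of the 377 names. At 24 h 27 rose and 26 fell, beside a background of 8.76% higher and 9.51% lower among 16680 gene names. With TPM over all transcripts 4 rose and 56 fell, and of all 16680 names 215 then rose and 3893 fell. For 243 of the longer members both values were tested. Of the 11 members in this set that rose and passed the limit at 2 or more times, the sense sum rose for 2 (RP11-61L23.2 and RP11-575F12.1), fell for 1 (HSPA8) and was not called for 8. Another 7 entered through 24 h alone, so that their own rise was fixed by the choice of members, and their sense sum rose for 1 (FAM115C), fell for 1 (MCAT) and was not called for 5. Of the 7 that fell, the sense sum fell for 2 (MTRR and PSMC1P5), rose for none and was not called for 5. Another 20 rising and 3 falling members had a sense sum too low to test. Among the members that were not called, the sense sum was called at 51 and not called at 167. The background for this is the 8.76% higher and 9.51% lower given above, and a name with several members is counted once for each.

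**Figure D3:**
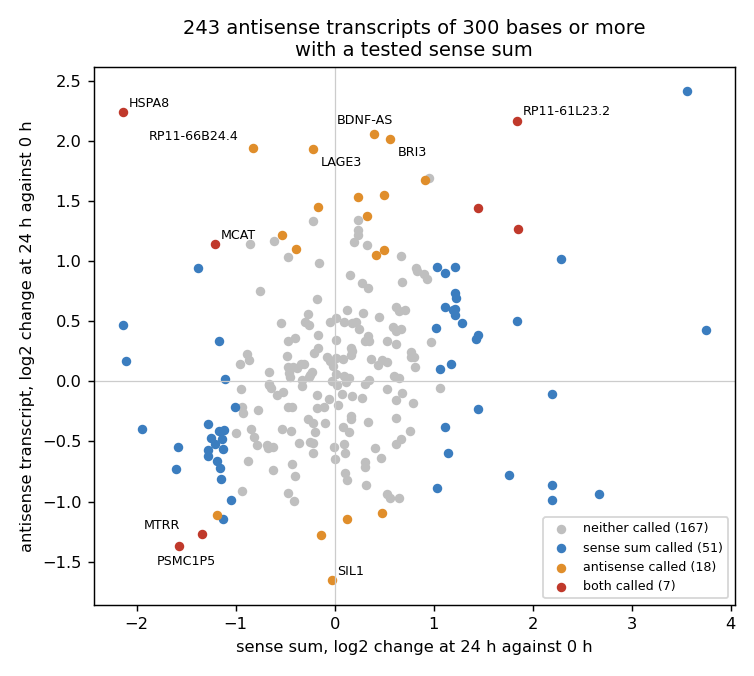
Log2 change at 24 h against 0 h of each of the 243 antisense transcripts of 300 bases or more (vertical axis) against that of the summed sense transcripts of the same gene name (horizontal axis). Colours mark which of the values was called; 7 points have both called, of which HSPA8 and MCAT lie at upper left, where antisense rose and sense fell, MCAT being a member that entered through 24 h alone.

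Strongly induced sense genes show how small the antisense values can be. Opposite PGK1, the glycolytic phosphoglycerate kinase (chrX:77359745-77384792, plus strand), the member of 832 bases had 0.109, 0.0884 and 0.185 FPKM at 0 h, 0.0975 to 0.323 at 1 h, 0.121 to 0.522 at 2 h and 1.02, 0.558 and 0.779 at 24 h. The 24 h libraries were above all others, but the log2 change of 1.02 (standard error 0.27) had a limma adjusted p = 0.0155 and was not called. PGK1 itself rose from 394 ± 9.74 to 1925 ± 160 FPKM (SD, n = 3), and the antisense share was 0.0324% at 0 h and 0.0407% at 24 h. The member opposite SAT1, a polyamine acetyltransferase, had 0.260, 0.0690 and 0.149 FPKM at 0 h and 2.77, 1.94 and 4.82 at 24 h (log2 change 2.41, standard error 0.65, limma adjusted p = 0.0183, not called), beside a sense rise from 77.9 ± 26.7 to 903 ± 190 FPKM (SD, n = 3). By contrast the member opposite PLOD2, a collagen lysyl hydroxylase, had 0.749, 0.0984 and 0.434 FPKM at 0 h and 0.520, 0.738 and 0.832 at 24 h, while PLOD2 rose from 7.0 ± 1.09 to 99.4 ± 8.13 FPKM (SD, n = 3). SAT1 and PLOD2 were picked after their values had been seen. Whether a small part of the sense reads carries the wrong strand mark was not tested.

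**Figure D4:**
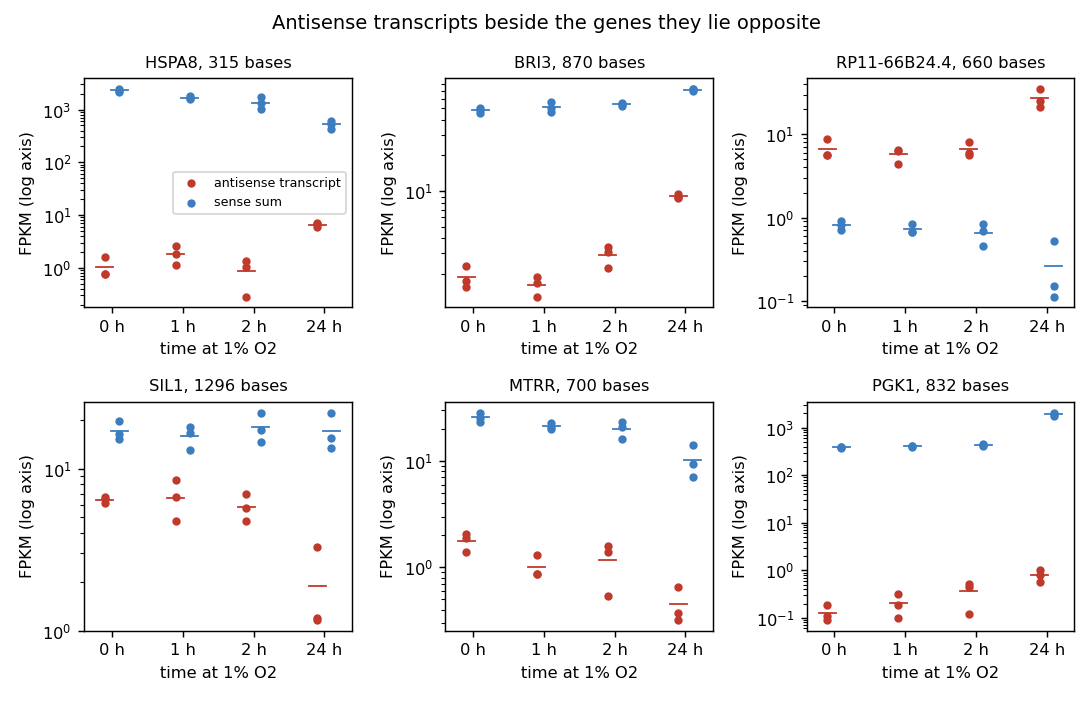
FPKM on log axes of 6 antisense transcripts (red) and of the summed sense transcripts of the gene opposite (blue) at 0, 1, 2 and 24 h of 1% O2. Points are libraries and bars are means of 3; HSPA8 antisense goes up to 5.84 to 7.01 FPKM while the sense sum goes down to 527 FPKM, SIL1 sense stays at a mean of 17.1 FPKM while the antisense points drop to 1.16 to 3.30 FPKM, and MTRR goes down in both colours.

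The antisense share was taken as antisense over antisense plus sense FPKM, each a mean of the 3 libraries at a time. Its median over the longer members was 32.3% before hypoxia and 30.1%, 36.3% and 39.5% after 1, 2 and 24 h. Within single libraries this median was 25.3%, 33.2% and 28.2% at 0 h and 28.7%, 32.3% and 39.2% at 24 h, so the times overlap. It differed more by the kind of gene opposite, being 7.44% facing protein-coding genes, 94.5% facing long noncoding RNAs and 99.1% facing pseudogenes at 0 h. At 24 h the same medians were 5.61%, 97.6% and 99.99%. The antisense transcript was the more abundant of the pair for 189 of the 415 longer members at 0 h and for 188 at 24 h.

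Among longer members whose sense sum was over 0.5 FPKM in at least 3 libraries, the largest antisense shares at 0 h were at CTD-2328D6.1, U3, PHC1P1, RP11-61L23.2 and RP11-66B24.4. At PHC1P1 the share was 93.9% at 0 h and 81.1% at 24 h. Its member had 56.6, 49.0 and 47.5 FPKM at 0 h and 32.5, 35.2 and 33.2 at 24 h, a log2 change of -0.59 (standard error 0.12, limma adjusted p = 0.005) under the fold threshold, while the sense sum rose from 3.33 ± 0.994 to 7.82 ± 0.968 FPKM (SD, n = 3; log2 change 1.15). The member opposite U3, a small nucleolar RNA whose name stands at 87 loci so that its sense sum is no pair for the member, had 0.689 to 0.819 FPKM at 0 h and 3.73, 2.04 and 1.48 at 24 h and was not called (limma adjusted p = 0.0211).

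The most abundant longer members were those opposite CTD-2328D6.1, LINC00273, RPE65, AC010970.2 and ITGB1P1. The first, whose sequence is given above, had 2657, 1651 and 2387 FPKM at 0 h, 2886 to 4805 at 1 h, 4520 to 5406 at 2 h and 2280, 4557 and 8728 at 24 h. The 24 h libraries overlapped those at 0 h, and it was not called (log2 change 1.04, standard error 0.39, limma adjusted p = 0.0717) but passed without 24 h replicate 1 (limma adjusted p = 0.00553). The member opposite LINC00273 had 760 to 1409 FPKM at 0 h and 1002, 1766 and 3446 at 24 h, and neither it nor that opposite AC010970.2 was called. The bundle of LINC00273 was 92.2% identical over 1839 aligned bases to the same contig, GL000220.1, and no copy of the AC010970.2 locus reached 90% identity over 200 bases. How reads that match several copies were assigned is not given in the sources used here, so the levels opposite CTD-2328D6.1 and LINC00273 are uncertain. All 3 had their highest value in 24 h replicate 3 and their lowest 24 h value in replicate 1, the order of the summed FPKM of these libraries. Opposite ITGB1P1, a copy of the integrin gene ITGB1, the member had 61.2 to 65.3 FPKM at 0 h and 78.6, 98.3 and 119 at 24 h (log2 change 0.62, limma adjusted p = 0.0253), at an antisense share of 22.4% and 22.7%.

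Members under 300 bases behaved differently in level. The 8 under 150 bases had a median of 6163 FPKM over the 12 libraries, against 1.38 FPKM for the 45 of 150 to 300 bases, 0.679 for the 88 of 300 to 500 bases, 0.625 for the 125 of 500 to 1000 bases and 0.559 for the 202 above that. A transcript barely longer than a 100-base read leaves few positions where a fragment can start, and FPKM divides by a length that small, so these levels are not comparable with those of longer transcripts.

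**Figure D5:**
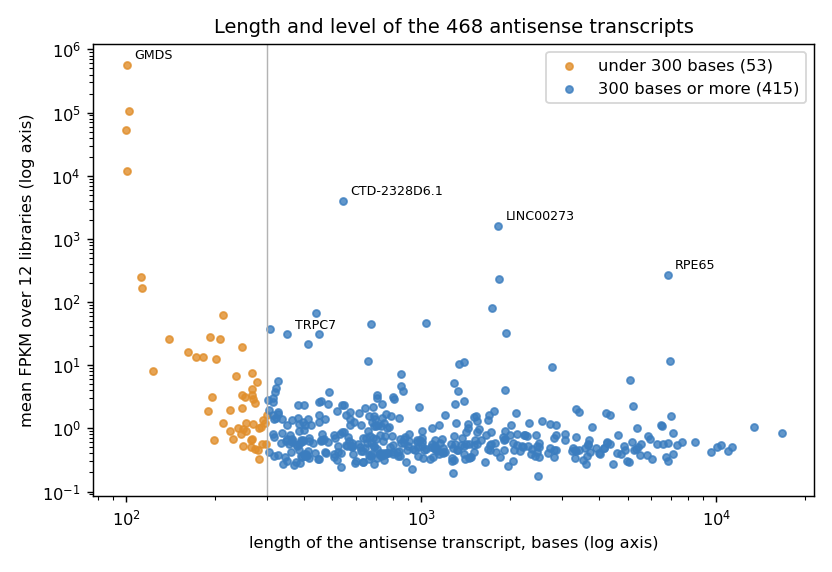
Mean FPKM over the 12 libraries against transcript length, both on log axes, for the 468 antisense transcripts. The vertical line is at 300 bases; the 4 highest points, led by GMDS at a mean of 575910 FPKM, are all 100 to 102 bases long.

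The highest was a transcript of 101 bases opposite GMDS, an enzyme of GDP-fucose synthesis, with 244300, 355880 and 588600 FPKM at 0 h and 434710, 540590 and 254310 at 24 h. It ranged up to 1033200 FPKM at 2 h, its times overlapped, and it was not called at 24 h (log2 change 0.07, standard error 0.39, limma adjusted p = 0.911). Opposite IMMP2L, a mitochondrial inner membrane peptidase, the member of 102 bases had 52005 to 60129 FPKM at 0 h and 73932, 201060 and 140300 at 24 h (limma adjusted p = 0.117). The member of 100 bases opposite SEPT7P3 was listed at 0 in 8 libraries and at 16650 to 387540 FPKM in the other 4. That of 112 bases opposite SETP8 ran from 0 to 582 FPKM with no order by time.

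At 24 h 4 of the 53 shorter members rose (7.55%) and none fell, beside a background of 10.1% higher and 2.65% lower among 1282 transcripts under 300 bases. Those 4 lay opposite GPM6A, RP11-400N13.2, BRI3 and CTD-2058B24.2, and at an unadjusted p under 0.05 11 were higher and 2 lower, 13 of 53 in all, beside 34.3% of the 1282. Without 0 h replicate 1, or without 24 h replicate 1, 2 were called, and the members opposite BRI3 and CTD-2058B24.2 lost their calls in 5 and 4 of the 6 cases in which 1 library was left out. The member of 101 bases opposite GPM6A, a neuronal membrane glycoprotein, was listed at 0 in all 0 h and 1 h libraries, at 10630 FPKM in 2 h replicate 2 and at 0 in the other two, and at 54964, 40258 and 39125 FPKM at 24 h. With all control libraries at 0 no fold can be given. This member passed the limit of 3 libraries only because of its 24 h values, so its rise was fixed by the choice of members. GPM6A itself rose from 0.839 ± 0.467 to 3.00 ± 0.519 FPKM (SD, n = 3; log2 change 1.44). Opposite RP11-400N13.2 the member of 277 bases had 3.95, 1.36 and 2.74 FPKM at 0 h, 2.19 to 3.79 at 1 and 2 h and 15.9, 9.66 and 13.97 at 24 h (log2 change 2.16, standard error 0.32, limma adjusted p = 0.000664). Opposite CTD-2058B24.2 the member of 253 bases had 1.64, 0.839 and 1.98 FPKM at 0 h and 7.64, 3.60 and 6.48 at 24 h (log2 change 1.68, standard error 0.35, limma adjusted p = 0.00486).

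From the means of the 3 libraries, the median antisense share of the shorter members was 43.6% before hypoxia and 33.0%, 85.1% and 78.5% after 1, 2 and 24 h. Within single libraries this median was 26.5%, 37.4% and 37.6% at 0 h and 22.0%, 7.48% and 30.6% at 1 h. It was 76.8%, 49.7% and 82.3% at 2 h and 36.3%, 49.4% and 61.0% at 24 h. At each time the value from the means was thus above that of every single library. From the means, the value at 24 h was 46.7% without replicate 3.

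No member was called at 1 h or 2 h. The background at each of these times was 0% of 64395 transcripts. At 1 h 9 longer and 4 shorter members had an unadjusted p under 0.05, and at 2 h 25 longer (21 higher, 4 lower) and 4 shorter members did, all 4 higher. Over all transcripts this share was 5.10% at 1 h and 9.22% at 2 h. The median log2 change at 2 h was 0.18 for the longer members and 0.62 for the shorter ones, against -0.003 and 0.11 over all transcripts of the same lengths, and 2 of the 3 libraries at 2 h are among the 4 with the largest summed FPKM. Without those 4 libraries 1 member was called at 2 h, the one opposite GPM6A, on its value in a single remaining library.

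Of all 16680 gene names with a tested sense sum, 241 (1.44%) had a member opposite them, so lists of the sizes examined would hold few or none. None of 23 hypoxia genes, 25 splicing genes and 25 DNA repair genes had a member on the opposite strand past the limit, and of 18 glycolysis genes only PGK1 had. Of 3 members opposite ZNF genes, 1 (ZNF710) rose, and that one entered through 24 h alone. The other two were not called, and the median log2 change of the 3 was -0.67. None of 3 opposite SLC genes (median 0.59) and 1 opposite a histone gene (0.23) was called, and no member lay opposite a gene of the mitochondrial genome.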

How the data were processed

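Read pairs of 100 bases were aligned to hg19 by the authors, who built a transcript set per library with Cufflinks, combined the sets and named the result by comparison with Ensembl. The deposited values are FPKM per transcript and library, with no rescaling between libraries stated; read depth and counts are not analysed here, so spread between 3 replicates is the precision given. Lengths, class codes and loci came from the deposited attribute table. Tests used limma 3.58.1 in R 4.3.3 (lmFit, eBayes with trend, two-sided) on log2(FPKM + 0.5) with time as the only term, which understates changes at low FPKM. Sense sums were fitted the same way over 16680 names. Positions and gene kinds came from GENCODE release 44 on GRCh37, and copies from blastn over the same genome (at least 200 bases and 90% identity). Tables and figures used pandas 2.3.3 and matplotlib 3.10.9. Members named in full were the largest called rises and falls (8 each at 300 bases or more, 4 each below), the 5 most abundant of each class, the 5 of largest antisense share, those at the limit, and all opposite hypoxia or glycolysis genes. The rises and falls were taken only from called members whose 24 h and 0 h libraries do not overlap. Members and lists were chosen with earlier results of these data known. Scalings, filters and single libraries were varied as given in the closing section, and the fit was tested on simulated data.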

Additional observations from a re-analysis of the deposited data

How the results depend on the processing

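The count of members of 300 bases or more called at 24 h, 48 as reported, was 25 with pseudocount 1, 31 with a minimum of FPKM 1, 9 with TPM over all transcripts (8 of them among the 48), 14 with the libraries of the 2 groups alone (13 among the 48) and 14 without the 4 libraries of largest summed FPKM (13 among the 48), while an adjusted p under 0.05 with no fold threshold gave 99. Leaving out 1 library gave 21 to 45. The count of 4 below 300 bases became 1 with no filter, 2 with the libraries of the 2 groups alone, and 2 to 3 with 1 library left out. With TPM over all transcripts it was 2, 1 higher and 1 lower, and only 1 of the 4 was kept. It was 10 at an adjusted p under 0.05 (9 higher, 1 lower), and 7 with the replicate block described below (6 higher, 1 lower). At 2 h the count of 0 became 1 without the 4 libraries, an alternative that, like the sense sum over a single locus, was chosen after seeing the data. Sense sums of 53 names were called, and 154 at an adjusted p under 0.05. The remaining alternatives kept these counts within 1.5 times, and all called members that could be tested kept their direction under each. The cause of these differences was not tested.

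The median antisense share of longer members was 51.0% at 0 h and 50.9% at 24 h with sense sums over transcripts past the limit, and 27.4% and 26.8% for members over FPKM 1. That of shorter members at 0 h was 68.5% over FPKM 1 and 30.9% with a length limit of 500, and at 24 h 41.4% with that limit and 46.7% to 79.6% with 1 library left out, the lowest without 24 h replicate 3.

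Log2 changes that turned in sign all belonged to members that were not called. With TPM over all transcripts they were -0.251 for ITGB1P1, -0.8 for GMDS (101 bases) and -0.444 for SETP8, with TPM over the longer transcripts -0.019 for GMDS, and without the 4 libraries -0.211 for SETP8. With 1 library left out they ran from -0.227 to 0.407 for GMDS, from -6.174 to 5.008 for SEPT7P3, from -0.424 to 0.232 for RP11-697B24.1 and from -0.436 to 1.158 for SETP8.

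With the replicate number as a block 44 longer members (37 higher, 7 lower) were called, 42 of them among the 48, and 7 shorter ones. The named members opposite CLTC and MTRR lost their calls (limma adjusted p = 0.014 and 0.0174), and no other named member changed side. Same-numbered libraries shared little between 0 h and 24 h (correlation of deviations -0.03 to 0.11). Among 0, 1 and 2 h these correlations were all positive, from 0.05 to 0.13. Between 2 h and 24 h they ran from -0.04 to 0.17, and between 1 h and 24 h from -0.14 to -0.02. Depth limits all members near 0.5 FPKM, where a fold rests on the pseudocount, and read counts were not used here.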
